A study of Rattus norvegicus with 30 samples.

Results

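The genes described here are the semaphorins of classes 3 to 7, the plexins, the netrins, the Unc5 receptors, the Slits, the Robos, the Eph receptors and the ephrins, which guide growing blood vessels and axons. They were taken by gene symbol alone, whatever their values, and came to 64 of the 30562 rows of the table. Efnb2 and Ephb4, the ephrin and Eph receptor known as markers of artery and vein, were left out. Of the 64 genes, 55 passed the filter on low counts and were tested among 16171 genes. The other 9 (Epha5, Epha6, Epha8, Epha10, Slit1, Efnb3, Ntn5, Unc5d and Plxnb3) had mean levels of at most 0.0792 CPM (counts scaled to a common library total), and none of them exceeded 0.467 CPM in any library.

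RNA was sequenced from lung cells of wild-type rats, sorted on microbeads for CD31 (Pecam1), which sits on the surface of endothelium and also of platelets and some leukocytes. Every rat had been operated on 3 weeks earlier, with either a sham operation or a Glenn operation, which connects a vena cava directly to a pulmonary artery and so feeds that lung with venous blood that lacks the outflow of the liver. Rats of both arms were fed a vitamin A control diet, a vitamin A deficient diet or a vitamin A excess diet, which gave 6 groups of 5 libraries. The question was how surgery and dietary vitamin A change these cells. The strain, the age and the number of rats behind a library are not given in the sources used here. Ddx3y, a Y-linked gene, was above 10 CPM in 2 or 3 of the 5 libraries of every group, so each group held RNA of more than 1 animal. The labels do not say that all libraries of a group came from separate animals, so p-values measure the spread between these libraries, which may be technical in part. In a bulk library, fewer cells of a type and less RNA per cell cannot be told apart.

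Semaphorins are secreted or membrane-bound cues that mostly repel cells, and they signal through plexins, with the neuropilins Nrp1 and Nrp2 as co-receptors of most class 3 members. Netrins bind the Unc5 receptors and Dcc, Slits bind Robos, and ephrins bind Eph receptors on neighbouring cells, where both sides can signal. In endothelium these systems are known for steering sprouting, for keeping vessel walls tight and for setting borders between arteries and veins.

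Library totals ranged from 22.0 to 77.6 M estimated counts, with a median of 40.0 M. The libraries also fell apart in the level of RT1-CE16, a class I histocompatibility gene: 17 had 21.9 to 44.4 CPM and 13 had 407 to 949 CPM. The high-level libraries were 6 of the sham libraries and 7 of the Glenn libraries, and none of them was in the sham group on the excess diet. The 10 general endothelial markers, Cdh5 and Pecam1 among them, summed to 9483 to 11704 CPM after sham and to 6812 to 9775 CPM after Glenn. Of these 10, 6 fell and 3 rose, with a median log2 change of -0.33. Markers of other lung cells were present too, with summed levels of 12 epithelial markers of 26983 to 62446 CPM over all libraries.

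After Glenn surgery the guidance genes moved in both directions, and most of the called changes had the same sign on the 3 diets, although fewer passed on each diet alone. Averaged over the diets, 34 of the 55 tested genes passed an adjusted p of 0.05 (edgeR quasi-likelihood test with Benjamini-Hochberg adjustment over all genes tested), 23 of them higher and 11 lower. That is 61.8%, against 48.2% of all genes tested, of which 23.4% were higher and 24.7% lower. The median log2 change was 0.22 over the 55 genes and -0.01 over all genes. Of the 31 ligands tested, 14 rose and 6 fell, and of the 24 receptors tested, 9 rose and 5 fell. By family, 100% of the class 3 semaphorins passed, 69.2% of classes 4 to 7 and 66.7% of the Eph receptors. Plexins, netrins with Unc5 receptors, and Slits with Robos were each at 50%, near the 48.2% of all genes. Ephrins, at 33.3%, were below it. These shares rest on 6 to 13 genes each and were not tested.

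In 11 of the guidance genes no sham library overlapped a Glenn library, 15 against 15, where 5.83% of all genes tested showed no overlap. Ephb1, Sema6b, Sema3a, Robo4 and Sema6d were higher in every Glenn library than in every sham library, as were 3.1% of all genes. Plxnc1, Unc5a, Sema3c, Sema3g, Efnb1 and Plxna1 were lower in every Glenn library, as were 2.73% of all genes. A called change of at least 2-fold was also found in 11 genes, but not the same ones. Ephb1, Sema6b, Sema3a, Sema3b and Sema7a were at least 2-fold higher, as were 6.04% of all genes, and Plxnc1, Unc5a, Sema3c, Sema3g, Epha4 and Efnb1 were at least 2-fold lower, as were 2.72% of all genes.

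**Figure D1:**
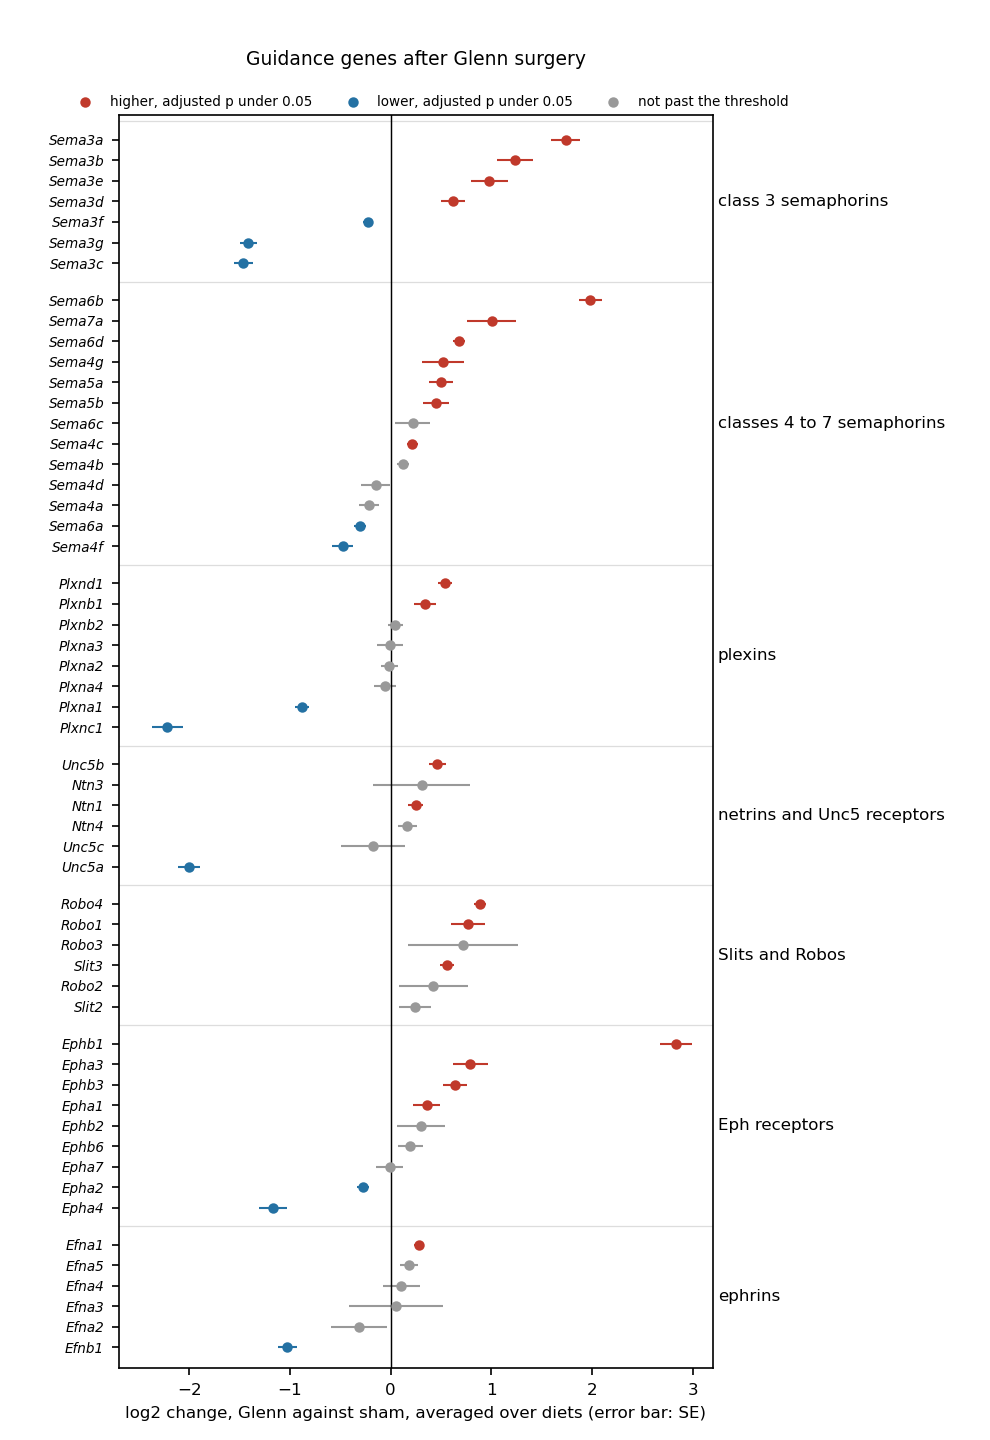
Log2 change of the 55 tested guidance genes after Glenn against sham surgery, averaged over the 3 diets, by family; points are fitted values and bars are standard errors, red for higher, blue for lower and grey for genes past no threshold. Ephb1 lies farthest to the right at 2.83 and Plxnc1 farthest to the left at -2.22, and each family but the Slits and Robos holds points of both colours.

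The promoters of 6 of the genes without overlap are shown because these genes had the largest changes of that set among those with an entry in the RefSeq table (GRCr8 build, 250 bases before the start of the gene, read 5′ to 3′ on the gene's strand). Capitals mark matches, on either strand, to 4 motifs: GGCGCC, an element bound by SMAD factors, AGGTCA, the half-site of nuclear receptors such as the retinoic acid receptors, CACCC, bound by KLF factors, and TGGGAA, bound by RBPJ of the Notch pathway. None of the 4 contains another, though neighbouring matches may overlap.
Ephb1: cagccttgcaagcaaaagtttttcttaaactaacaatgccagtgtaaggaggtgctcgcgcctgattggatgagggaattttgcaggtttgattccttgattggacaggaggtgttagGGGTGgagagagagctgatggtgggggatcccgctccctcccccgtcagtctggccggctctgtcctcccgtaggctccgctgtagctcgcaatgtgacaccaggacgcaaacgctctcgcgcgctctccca
Sema6b: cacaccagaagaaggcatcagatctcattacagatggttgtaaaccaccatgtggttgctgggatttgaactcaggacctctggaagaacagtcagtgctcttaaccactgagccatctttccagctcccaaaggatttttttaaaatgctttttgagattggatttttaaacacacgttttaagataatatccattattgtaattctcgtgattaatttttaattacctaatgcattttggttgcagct
Plxnc1: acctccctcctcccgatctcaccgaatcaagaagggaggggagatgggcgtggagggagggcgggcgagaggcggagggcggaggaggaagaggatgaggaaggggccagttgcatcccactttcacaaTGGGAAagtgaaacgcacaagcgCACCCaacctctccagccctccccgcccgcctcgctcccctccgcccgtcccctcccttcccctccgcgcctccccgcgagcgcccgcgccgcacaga
Unc5a: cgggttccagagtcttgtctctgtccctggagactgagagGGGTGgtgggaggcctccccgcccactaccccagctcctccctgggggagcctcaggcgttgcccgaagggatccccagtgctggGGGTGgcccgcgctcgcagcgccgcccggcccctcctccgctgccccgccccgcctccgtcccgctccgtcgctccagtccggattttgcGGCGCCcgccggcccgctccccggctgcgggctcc
Sema3c: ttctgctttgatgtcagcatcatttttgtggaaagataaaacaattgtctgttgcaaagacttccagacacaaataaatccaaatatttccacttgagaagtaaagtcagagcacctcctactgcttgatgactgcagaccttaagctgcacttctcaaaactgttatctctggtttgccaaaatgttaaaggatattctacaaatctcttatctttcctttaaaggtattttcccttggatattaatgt
Sema3g: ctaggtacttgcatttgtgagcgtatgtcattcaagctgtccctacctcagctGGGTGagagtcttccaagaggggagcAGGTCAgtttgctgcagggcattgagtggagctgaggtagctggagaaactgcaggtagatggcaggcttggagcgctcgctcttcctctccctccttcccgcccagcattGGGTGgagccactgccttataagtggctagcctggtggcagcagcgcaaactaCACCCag

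The windows lie at chr8:111823760-111824009 on the minus strand for Ephb1, chr9:1047743-1047992 on the minus strand for Sema6b, chr7:31430606-31430855 on the minus strand for Plxnc1, chr17:9675664-9675913 on the minus strand for Unc5a, chr4:18699628-18699877 on the minus strand for Sema3c and chr16:6419775-6420024 on the plus strand for Sema3g. The windows of Sema6b and Sema3c are poor in G and C (37.2% and 35.2%) and hold no match, while that of Unc5a is 75.6% G and C and holds 1 GGCGCC and 2 CACCC. Sema3g alone of the 6 has an AGGTCA match, beside 3 CACCC matches. Of the 64 guidance genes, 49 had an entry. GGCGCC was found in 20.4% of these 49 promoters and 8.69% of all 33469 promoters in the table, CACCC in 69.4% and 49.2%, TGGGAA in 22.4% and 22.1%, and AGGTCA in 6.12% and 14.1%. Base composition was not matched in these shares, and a match describes letters only.

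All 7 class 3 semaphorins, the secreted members, passed the threshold, but not in 1 direction: Sema3a, Sema3b, Sema3d and Sema3e rose and Sema3c, Sema3f and Sema3g fell. Sema3a (ENSRNOG00000023337), a repellent cue that binds Nrp1, was at 3.32, 6.25 and 10.3 CPM in the lowest, median and highest sham library and at 15.6, 22.5 and 37.4 CPM after Glenn. The log2 change of Sema3a was 1.74 (SE 0.14, edgeR adjusted p = 6.81e-11). Sema3b, a class 3 member that binds neuropilins, ran from 2.62 through a median of 8.98 to 17.3 CPM after sham and from 12.4 through 21.5 to 40.7 CPM after Glenn. The sham and Glenn libraries of Sema3b overlapped at their edges, and its log2 change was 1.23 (SE 0.17, edgeR adjusted p = 1.44e-06). Sema3e, which differs from the others of its class in binding Plxnd1 directly, rose from a median of 22.2 to 44.8 CPM (log2 change 0.98, SE 0.18). Sema3d rose from a median of 25.4 to 38.8 CPM, a log2 change of 0.62 (SE 0.12).

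Sema3c (ENSRNOG00000006526), known as a gene of general capillary endothelium in the lung, was at 698 to 1126 CPM in the sham libraries, with a median of 772 CPM. After Glenn it was at 200.2 to 509 CPM, with a median of 282 CPM. The log2 change of Sema3c was -1.47 (SE 0.09, edgeR adjusted p = 2.25e-13), and its value on the control, deficient and excess diets was -1.29, -1.54 and -1.57. Sema3g (ENSRNOG00000018952), an arterial endothelial semaphorin that binds Nrp2, had sham levels of 172, 164, 218, 155 and 170 CPM on the control diet, 198, 161, 131, 166 and 97.7 CPM on the deficient diet and 158, 194, 158, 172 and 209 CPM on the excess diet. After Glenn, Sema3g stood at 67.6, 58.6, 44.1, 45.0 and 40.4 CPM on the control diet, 73.5, 53.9, 79.5, 51.7 and 63.5 CPM on the deficient diet and 90.3, 74.9, 54.5, 62.3 and 56.8 CPM on the excess diet. The lowest sham library of Sema3g was thus still above the highest Glenn library, and its log2 change was -1.42 (SE 0.09, edgeR adjusted p = 7.5e-14). Sema3f, a ligand of Nrp2, changed least of the class, with a log2 change of -0.22 (SE 0.05) and overlapping libraries.

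**Figure D2:**
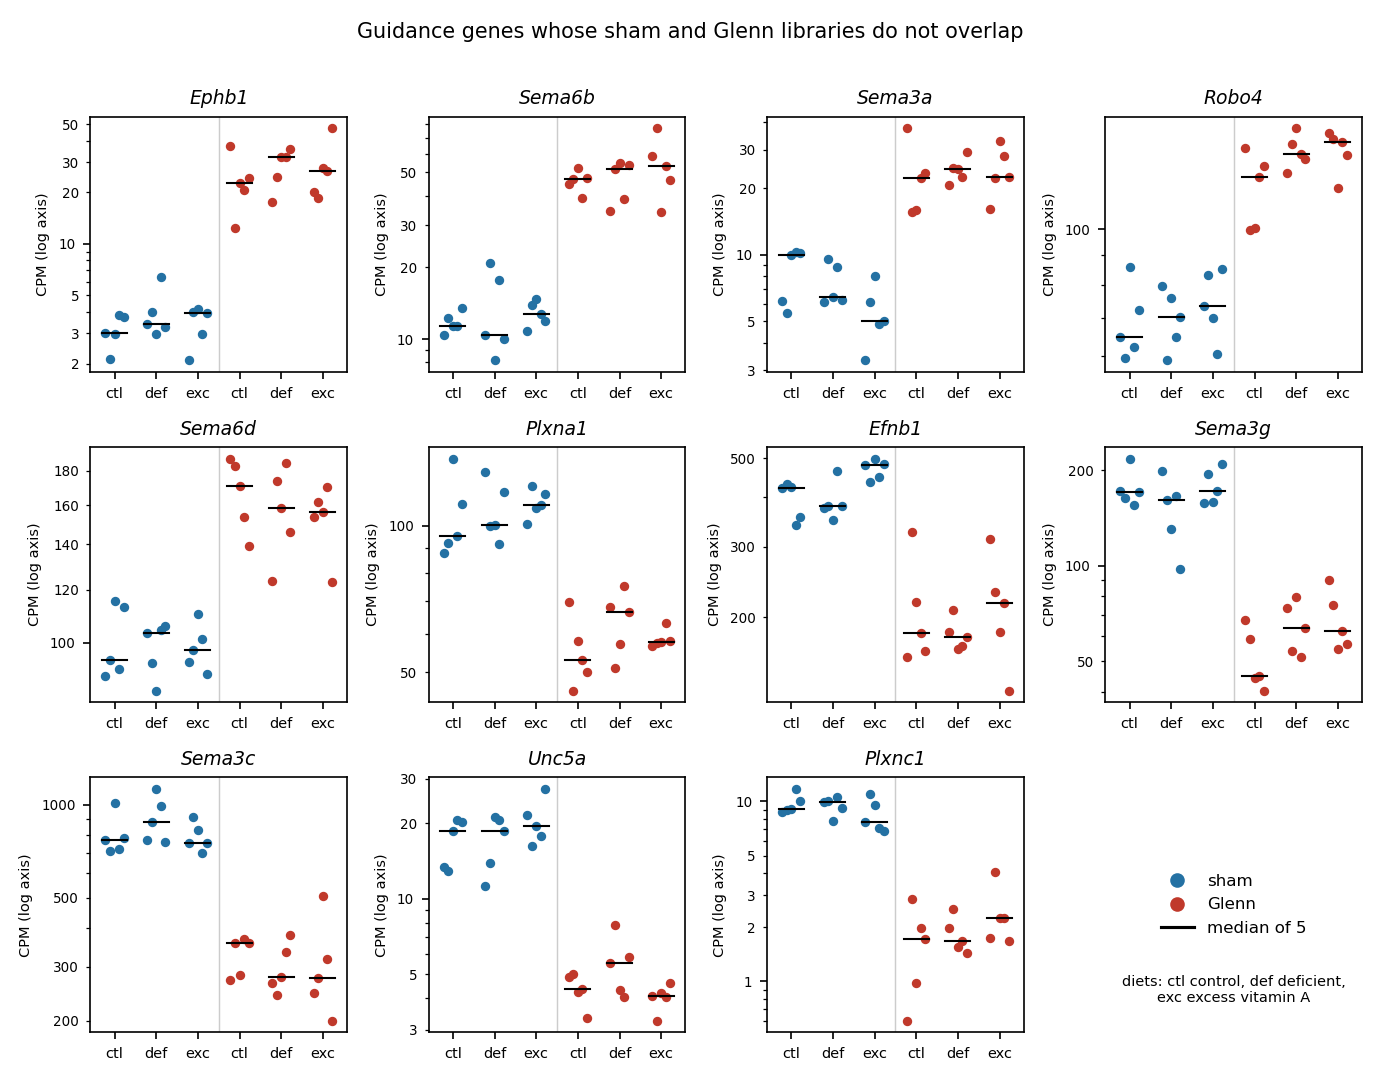
Level in CPM (log axis) of the 11 guidance genes whose sham and Glenn libraries do not overlap; each point is 1 library, blue for sham and red for Glenn, by diet, and the line is the median of 5. Ephb1 runs from 2.09 to 6.38 CPM in the sham libraries and from 12.3 to 47.1 CPM in the Glenn libraries, and Plxnc1 from 6.84 to 11.7 CPM and from 0.603 to 4.03 CPM.

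Among the 13 semaphorins of classes 4 to 7, most of them anchored in the membrane, 7 rose, 2 fell and 4 (Sema4a, Sema4b, Sema4d and Sema6c) did not pass the threshold. Sema6b (ENSRNOG00000045998), a transmembrane ligand of class A plexins, was at 8.16, 11.9 and 20.9 CPM in the lowest, median and highest sham library and at 34.3, 47.3 and 76.4 CPM after Glenn. It was 3.96-fold higher (log2 change 1.98, SE 0.11, edgeR adjusted p = 2.94e-14), and across the control, deficient and excess diets its log2 change was 1.96, 1.75 and 2.24. Sema6d (ENSRNOG00000004812), a ligand of Plxna1, moved less but as evenly, from 85 to 115 CPM (median 97.8) after sham to 123 to 188 CPM (median 158) after Glenn. Sema6d changed by 0.68 on the log2 scale (SE 0.06, edgeR adjusted p = 2.57e-10). Sema6a, another transmembrane member of class 6, fell from a median of 352 to 286 CPM (log2 change -0.31, SE 0.06), so the class did not move as one.

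Sema7a (ENSRNOG00000007687), a semaphorin held in the membrane by a lipid anchor, varied widely among the Glenn libraries. The sham libraries ran from 17.6 to 37.5 CPM with a median of 27.0 CPM. After Glenn, Sema7a was at 96.6, 94.1, 89.4, 16.6 and 15.7 CPM on the control diet, 49.1, 93.0, 51.3, 30.7 and 46.4 CPM on the deficient diet and 87.1, 87.2, 18.3, 43.5 and 32.1 CPM on the excess diet. On average Sema7a rose by 1.00 on the log2 scale (SE 0.24, edgeR adjusted p = 0.00143). By diet it passed on the control diet only, where the Glenn values of 16.6 and 15.7 CPM lay below every sham library. The spread of Sema7a moved with the RT1-CE16 level: the 8 Glenn libraries low in RT1-CE16 held 49.1 to 96.6 CPM and the 7 high ones 15.7 to 46.4 CPM, while the sham libraries held 17.6 to 37.5 CPM and 23.3 to 36.1 CPM. Within the low libraries the log2 change of Sema7a was 1.62 (SE 0.15, edgeR adjusted p = 7.07e-07). Within the high ones it was -0.62 on the control diet (adjusted p = 0.188) and 0.26 on the deficient diet (adjusted p = 0.615). On the deficient and excess diets the RT1-CE16-high Glenn libraries (2 and 3) were those of the smaller library series (library numbers above 500). The 2 splits cannot be told apart there. On the control diet every library was of the larger series. Of the rest of these classes, Sema5a, Sema5b and Sema4c rose by log2 changes of 0.50, 0.45 and 0.22, and Sema4f had a log2 change of -0.48. Sema4g, at medians of 0.872 and 1.30 CPM, rose by 0.52 on the log2 scale (SE 0.21, edgeR adjusted p = 0.0394). That call was lost when any 1 of 13 libraries was left out (log2 change 0.44 to 0.52, edgeR adjusted p = 0.0503 to 0.0724): sham control replicates 3 and 5, Glenn control 3 and 4, sham deficient 2, 3, 4 and 5, Glenn deficient 1, sham excess 1 and 4, and Glenn excess 1 and 5.

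Of the 8 plexins tested, the receptors of semaphorins, 2 rose, 2 fell and 4 (Plxna2, Plxna3, Plxna4 and Plxnb2) did not pass the threshold. Plxnc1 (ENSRNOG00000007970), the plexin that binds Sema7a, was at 6.84, 9.22 and 11.7 CPM in the lowest, median and highest sham library and at 0.603, 1.74 and 4.03 CPM after Glenn. It was 4.65-fold lower (log2 change -2.22, SE 0.16, edgeR adjusted p = 1.08e-12). Plxna1 (ENSRNOG00000017003), a receptor of Sema6d and a partner of neuropilins, was at 87.8 to 138 CPM (median 109) after sham and at 45.8 to 75.2 CPM (median 57.8) after Glenn. The log2 change of Plxna1 was -0.88 (SE 0.07, edgeR adjusted p = 1.67e-11). Plxnd1 (ENSRNOG00000025209), the endothelial plexin that receives Sema3e, went the other way, from 266 to 462 CPM (median 367) to 424 to 617 CPM (median 536). Plxnd1 rose by 0.54 on the log2 scale (SE 0.07, edgeR adjusted p = 1.13e-07), with a little overlap of the libraries. Plxnb1, a receptor of Sema4d, rose from a median of 22.2 to 29.9 CPM (log2 change 0.34, SE 0.11), although no single diet passed the threshold.

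Among the netrins and Unc5 receptors, 6 were tested: Ntn1 and Unc5b rose, Unc5a fell, and Ntn3, Ntn4 and Unc5c did not pass. Ntn4, a netrin of basement membranes, was at 0.17 on the log2 scale (SE 0.10, edgeR adjusted p = 0.163), and passed among the RT1-CE16-low libraries alone, at 0.39 (adjusted p = 0.0098). Unc5a (ENSRNOG00000059840), a netrin receptor with a death domain, was at 11.2, 18.7 and 27.4 CPM in the lowest, median and highest sham library and at 3.26, 4.33 and 7.83 CPM after Glenn. Unc5a changed by -2.0 on the log2 scale (SE 0.11, edgeR adjusted p = 4.6e-15), with -1.97 on the control diet, -1.55 on the deficient diet and -2.48 on the excess diet. Unc5b, the Unc5 receptor of endothelial cells, ran from 134 to 204 CPM (median 168) after sham and from 162 to 360 CPM (median 218) after Glenn. Its log2 change was 0.47 (SE 0.09, edgeR adjusted p = 7.21e-05), and by diet it passed on the deficient diet only. Ntn1, a secreted ligand of both, rose from a median of 44 to 53.1 CPM (log2 change 0.25, SE 0.07), with -0.01 on the control diet, 0.21 on the deficient diet and 0.55 on the excess diet, where it passed. Unc5c, at most 2.67 CPM in any library, passed on the control diet only (log2 change -1.85, SE 0.56, edgeR adjusted p = 0.0146) and had values of 0.76 and 0.56 on the deficient and excess diets; it was singled out after its values were seen, and the difference between diets did not pass (adjusted p = 0.559). Dcc, the other netrin receptor, had a count of 0 in all 30 libraries, which allows up to 0.0386 to 0.136 CPM per library (3 counts, for counting error only). Neo1, a relative of Dcc, had medians of 35.2 and 37.2 CPM and did not pass.

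Among the Slits and Robos, 3 of 6 rose and none fell, with Slit2, Robo2 and Robo3 past no threshold. Robo4 (ENSRNOG00000049289), the endothelial Robo that acts with Unc5b in vessel stability, was at 58.9, 70.2 and 85.9 CPM in the lowest, median and highest sham library and at 99.8, 135 and 150 CPM after Glenn. Its log2 change was 0.89 (SE 0.06, edgeR adjusted p = 1.2e-12) and the diets gave 0.78, 0.96 and 0.92. Robo1, the broadly expressed Slit receptor, rose from a median of 2.63 to 4.52 CPM (log2 change 0.77, SE 0.17), with overlapping libraries. By diet Robo1 passed on the deficient diet only. Slit3 (ENSRNOG00000007377), a secreted ligand known in vessel growth, was at 34.7 to 70 CPM (median 56.1) after sham and at 67 to 97.6 CPM (median 78.1) after Glenn. The log2 change of Slit3 was 0.56 (SE 0.07, edgeR adjusted p = 2.47e-07), and by diet it was 0.33, 0.45 and 0.90. Slit2 had medians of 14.6 and 20.1 CPM and differed by 0.24 on the log2 scale (SE 0.16, edgeR adjusted p = 0.228). With RT1-CE16 level and sex in place of the library series, Slit2 passed, at 0.31 (adjusted p = 0.0139).

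Ephb1 (ENSRNOG00000007865), a receptor tyrosine kinase of the B class, showed the largest change of the 55 genes tested. In the sham libraries it was at 3.00, 2.12, 2.96, 3.84 and 3.75 CPM on the control diet, 3.39, 4.02, 2.98, 6.38 and 3.28 CPM on the deficient diet and 2.09, 4.002, 4.14, 2.97 and 3.92 CPM on the excess diet. The Glenn libraries held 37.5, 12.3, 22.7, 20.5 and 24.2 CPM on the control diet, 17.4, 24.4, 32.3, 32.2 and 35.8 CPM on the deficient diet and 20.02, 18.6, 27.5, 26.5 and 47.1 CPM on the excess diet. Ephb1 was 7.13-fold higher after Glenn (log2 change 2.83, SE 0.16, edgeR adjusted p = 2.32e-14), and the diets gave 2.90, 2.90 and 2.69. Within the RT1-CE16-low libraries the value was again 2.83.

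Of the 9 Eph receptors tested, 4 rose, 2 fell and 3 (Epha7, Ephb2 and Ephb6) did not pass. Epha4, a receptor that takes ephrins of both classes, was at 19.7, 45.2 and 68.9 CPM in the lowest, median and highest sham library and at 16.6, 18.9 and 26.3 CPM after Glenn. Epha4 changed by -1.17 on the log2 scale (SE 0.14, edgeR adjusted p = 9.06e-08), and only the lowest sham library lay within the Glenn range. Epha3, a receptor of A-class ephrins, rose from a median of 1.81 to 2.82 CPM (log2 change 0.79, SE 0.18), with 0.09 on the control diet, 1.04 on the deficient diet and 1.25 on the excess diet. Ephb3, another B-class receptor, rose from a median of 9.45 to 15.3 CPM (log2 change 0.64, SE 0.12). Epha2, a receptor of Efna1, fell from a median of 93.3 to 73.9 CPM (log2 change -0.28, SE 0.06). It passed on the deficient and excess diets but not on the control diet, where the log2 change was -0.10. Epha1 rose by a log2 change of 0.36, a call lost without Glenn deficient replicate 1 or Glenn excess replicate 2 (log2 change 0.31 in both cases).

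Among the 6 ephrins tested, Efna1 rose, Efnb1 fell, and Efna2, Efna3, Efna4 and Efna5 did not pass. Efnb1 (ENSRNOG00000006877), a transmembrane ligand of B-class receptors such as Ephb1, was at 341, 424 and 498 CPM in the lowest, median and highest sham library and at 131, 184 and 327 CPM after Glenn. Its log2 change was -1.03 (SE 0.10, edgeR adjusted p = 7.7e-10) and the diets gave -0.91, -1.16 and -1.01. Efna1, a lipid-anchored ligand, ran from 267 to 357 CPM (median 317) after sham and from 325 to 470 CPM (median 378) after Glenn, higher by 0.28 on the log2 scale (SE 0.05, edgeR adjusted p = 2.63e-05).

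On each diet alone, the surgery comparison gave fewer calls. On the control diet 22 of the 55 genes passed, 12 higher and 10 lower, against 24.9% of all genes (11.8% higher and 13.1% lower). The deficient diet gave 27 genes, 17 higher and 10 lower, against 27.4% of all genes (13.7% in each direction). The excess diet gave 23 genes, 14 higher and 9 lower, against 21.9% (11.6% higher and 10.4% lower). The 5 sham and 5 Glenn libraries did not overlap on the control diet in 7 genes that were higher and 8 that were lower, where 17.2% of all genes showed no overlap (7.78% higher and 9.41% lower). On the deficient diet this held for 11 higher and 7 lower genes (19.6% of all genes, 10% higher and 9.59% lower), and on the excess diet for 10 higher and 8 lower genes (16.3%, 8.59% higher and 7.75% lower). In all 3 diets 10 genes rose and 7 fell, where 7.05% of all genes rose and 6.46% fell in all 3. Of the 34 genes called on the average, 33 had the same sign on every diet, Ntn1 being the exception, and Plxnb1, Epha1 and Sema4g passed on no single diet. With only RT1-CE16-low libraries the control diet gave 12 genes and the deficient diet 15, and with only the 22 libraries of the larger library series the deficient diet gave 15. These are fits with fewer libraries, and the shares of all genes called in them are not given here. The lower counts are therefore not read as a result about the guidance genes. Of the 34 genes, all kept their sign among the RT1-CE16-low libraries and 26 passed; Epha1, Epha2, Plxnb1, Robo1, Sema3f, Sema4g, Sema5a and Sema6a did not.

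**Figure D3:**
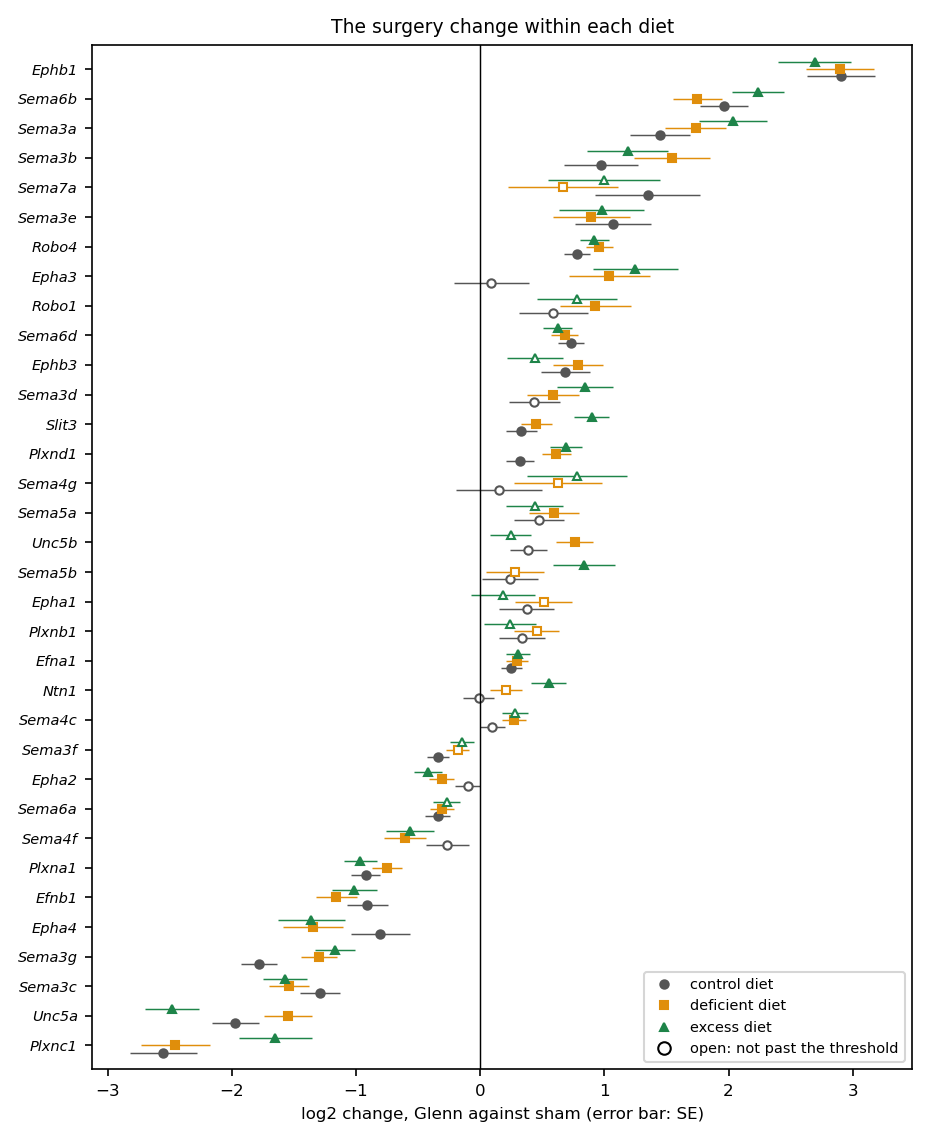
Log2 change after Glenn against sham surgery of the 34 called guidance genes on the control, deficient and excess vitamin A diet; points are fitted values and bars are standard errors. The 3 diets lie on the same side of 0 for 33 of the genes, and Ntn1 on the control diet is at -0.01.

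Vitamin A content of the diet moved almost none of these genes past the threshold. Among sham libraries, 0 of the 55 passed for the deficient against the control diet (background 0%), for the excess against the control diet (background 0.241%) and for the excess against the deficient diet (background 0.0124%) by edgeR. At an unadjusted p under 0.05 there were 3, 14 and 1 of the 55 in these comparisons, where 5.22%, 11.1% and 5.28% of all genes were under it. The 14, for the excess against the control diet, were a larger share than that of all genes. After Glenn, 0 passed for the deficient against the control diet (background 0.00618%, edgeR) and for the excess against the deficient diet (background 0%). The unadjusted counts were 8 and 10 of 55, both larger shares than the 9.88% and 5.18% of all genes. DESeq2 and limma voom also gave 0 in these 5 comparisons. For the excess against the control diet after Glenn, 1 gene passed where 1.47% of all genes did. Unadjusted, 14 of 55 were under 0.05, a larger share than the 13.9% of all genes. The gene that passed was Sema3g, higher by 0.63 on the log2 scale (SE 0.16, edgeR adjusted p = 0.0394). The 5 excess-diet libraries held 54.5 to 90.3 CPM. Of the control-diet libraries, 3 were at 40.4 to 45.0 CPM and 2, at 58.6 and 67.6 CPM, lay within the excess-diet range. The excess group held 3 libraries of the smaller library series and the control group none, so the value of 0.63 depends on the series term. That call was lost when 1 of 10 libraries was left out, namely Glenn control replicates 3, 4 and 5, Glenn excess replicates 1, 2 and 4, Glenn deficient replicates 1, 3 and 4 and sham deficient replicate 1. It was also lost without the series term, and DESeq2 called 4 genes and limma voom 3, Sema3g among them. The test of whether the surgery change differs between diets passed for 0 of the 55 genes (background 0.00618%, edgeR), with a smallest adjusted p of 0.559. Unadjusted, 6 of the 55 were under 0.05, a larger share than the 5.72% of all genes. Differences between the unadjusted shares were not tested.

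Co-receptors and the machinery behind the receptors were followed in a list of 78 genes, of which 72 were tested. Averaged over diets, 38 of these passed, 26 higher and 12 lower, beside the 48.2% of all genes, with a median log2 change of 0.09. Nrp1, the co-receptor of Sema3a and of VEGF, was at 789 to 1185 CPM (median 959) after sham and at 455 to 690 CPM (median 572) after Glenn, so that it fell by 0.74 on the log2 scale (SE 0.06, edgeR adjusted p = 1.91e-11). Nrp2, the co-receptor of Sema3f and Sema3g, went the other way, from a median of 81.4 to 128 CPM (log2 change 0.62, SE 0.08, edgeR adjusted p = 9.24e-08). Among the proteins that act on the cytoskeleton, Micall2, a relative of the MICAL proteins that plexins engage, rose from a median of 2.51 to 14.6 CPM (log2 change 2.42, SE 0.14). Dpysl3, a relative of the collapsin response mediators of semaphorin signalling, rose from 19.3 to 67.3 CPM (1.95, SE 0.09), and Ablim3, an actin-binding LIM protein, from 16.7 to 61.0 CPM (1.92, SE 0.09). Rnd3, a small GTP-binding protein that lowers actomyosin tension, had medians of 45.9 and 141 CPM. Arhgef15, the exchange factor known to act behind Eph receptors, fell from 341 to 175 CPM (-0.94, SE 0.05), and Vav3, another exchange factor used by Eph receptors, and Rras, a small GTPase that plexins switch off, had log2 changes of -0.47 and -0.49, both past the threshold.

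Markers of several cell types moved with surgery beside these genes, and their part in the changes was not tested. The summed level of 12 mural cell markers was 247 to 482 CPM after sham and 629 to 1966 CPM after Glenn, with all 12 higher, none at 0 and Acta2 at medians of 30.8 and 110 CPM. The 7 lymphatic endothelial markers, all higher, summed to 1099 to 2023 CPM and 2494 to 5124 CPM. Fibroblast markers summed to 1469 to 3634 CPM and 2139 to 5268 CPM, with 8 of 11 higher. General capillary markers, counted without Sema3c, summed to 6140 to 9607 CPM after sham and 2584 to 5990 CPM after Glenn, with 5 of 6 lower. Aerocyte markers summed to 1463 to 2350 CPM and 916 to 1344 CPM, with 4 of 7 lower and 2 higher. Arterial markers summed to 1204 to 1617 CPM and 1433 to 2353 CPM, with 6 of 8 higher and 2 lower. Venous ones summed to 1504 to 2532 CPM and 822 to 2149 CPM, with 3 of 6 lower and 2 higher. Epithelial markers had 5 of 12 lower and 2 higher. Platelet markers summed to 27.2 to 101 CPM and 24.6 to 93.7 CPM, with 5 of 6 lower and a median log2 change of -0.91. The 3 erythroid markers tested were all higher, at sums of 2.12 to 11.1 CPM and 2.94 to 195 CPM. Leukocyte markers summed to 13030 to 24465 CPM and 8076 to 18883 CPM, with 1 of 7 tested higher and 2 lower. Markers of Schwann cells and neurons, which also use guidance cues, summed to at most 18.3 CPM in any library, with Sox10 and Snap25 at a median of 0.

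**Figure D4:**
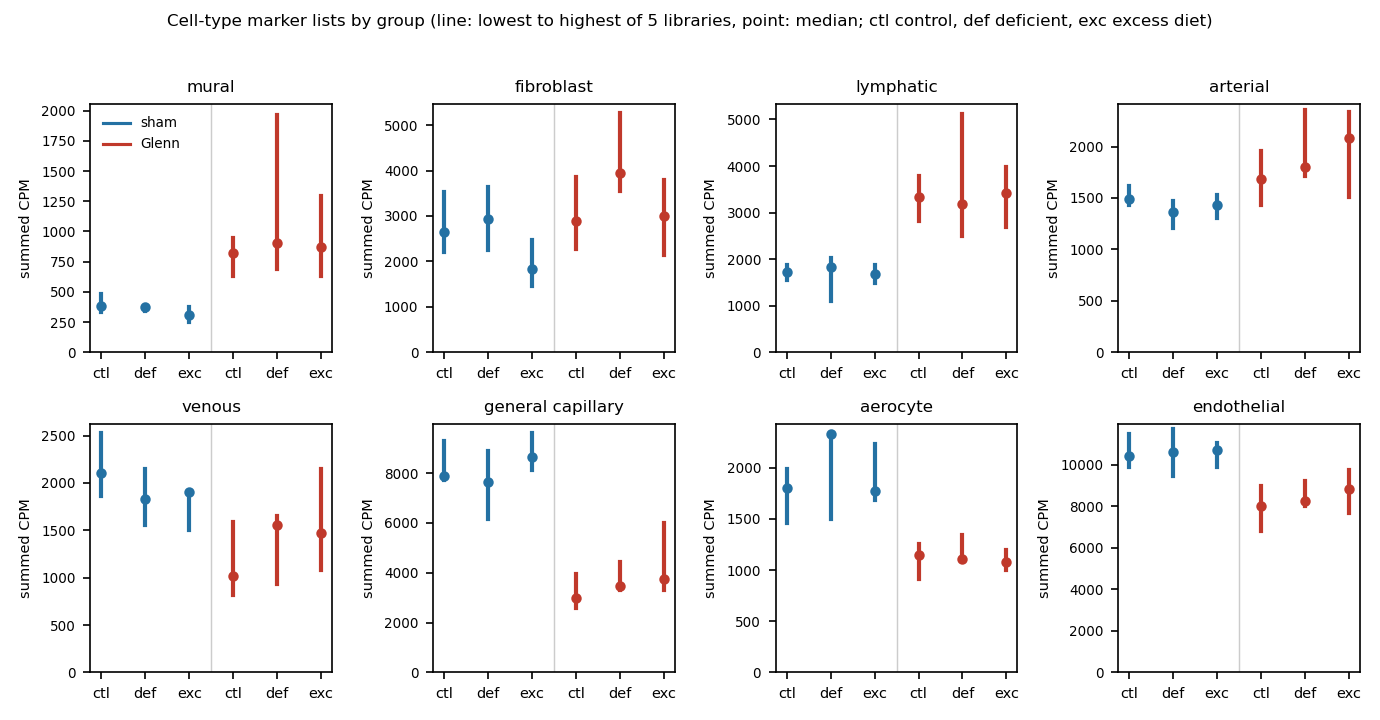
Summed level in CPM (axes from 0, scaled per list) of 8 lists of cell type markers in the 6 groups; points are medians of 5 libraries and lines run from the lowest to the highest library. The mural and lymphatic sums of the Glenn groups lie above those of the sham groups, and the general capillary sums lie below.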

How the data were processed

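RNA was measured in 30 libraries, 6 groups of 5. The values deposited by the authors are estimated counts for each gene, made with Salmon per the submitters' processing notes, which also name FastQC, Trim Galore, Picard, STAR and the builds mRatBN7.2 and rn7. Extraction used a PureLink kit and libraries a SMART-Seq low-input kit, per the labels' protocols. The annotation release and strandedness are not given in the sources used here, so overlapping or near-identical genes are uncertain. All sample columns were used, and 13.6% of values were not whole.

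Estimated counts were rounded and fitted for all 30 libraries with edgeR 4.0.16 (R 4.3.3): filterByExpr (minimum count 10, minimum total 15, 16171 genes kept), TMM scaling, a robust quasi-likelihood fit with 6 group means and an additive term for the library series (22 and 8 libraries, from the number in the library name, which is no stated batch) and Benjamini-Hochberg adjustment over all genes, called under 0.05. The smaller series made up 3 sham deficient, 2 Glenn deficient and 3 Glenn excess libraries. Both control-diet groups and sham excess held the larger series only, so the term was estimated from the mixed groups. Comparisons between groups that differ in their share of the series rest on that term. A standard error is the log2 change divided by the root of the test's F. CPM are scaled by TMM. Library totals of 22.0 to 77.6 M set the counting error, and the spread between libraries of a group was larger than that. Chi-square divided by its degrees of freedom lay at 21.2 to 126.4 in 60 pairs of libraries from 1 group, so none was counted as 1 sample. On simulated data of the averaged comparison (15776 genes), 89 of 90 changes of log2 1 and 107 of 107 of log2 2 were recovered, with 7 false calls. The simulation gave every gene the same dispersion, few changed genes and no difference by library series or RT1-CE16 level. It checks that the fit runs as intended and does not measure its error rates on these data.

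Alternatives were no series term, library subsets, DESeq2 1.42.0, limma 3.58.1 voom, other filters, terms for RT1-CE16 (100 CPM boundary) and sex (from Ddx3y, 10 CPM boundary), a replicate block and each library left out. RT1-CE16-high libraries only, the smaller series only and the test of surgery by RT1-CE16 level were added after seeing the data. Members, lists and motifs were chosen with earlier results of these data known. Values per library or as lowest, median and highest were given for up to 4 called genes per family with the largest change and at least 1 CPM, and for genes called in a diet comparison. A preset list of genes was added to these, and Sema3e, Sema6a, Ntn4, Slit2 and Epha2 entered by that list only. Promoters came from RefSeq (GRCr8).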

Additional observations from a re-analysis of the deposited data

Results flagged for a closer look

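A library standing far from the other 4 of its group was looked for in 174 sets of 5 values. The distance between the extreme library and its neighbour, divided by the range of the 5, passed Dixon's critical value in 10 sets, where chance alone flags about 1 in 20, or 8.7 sets. Unc5b in Glenn control replicate 1 was at 360 CPM beside 184 to 208 CPM (distance over range 0.866), and the averaged log2 change of Unc5b was 0.39 without that library. Slit2 in sham excess replicate 1 was low, at 6.09 CPM beside 12.7 to 14.6 CPM (0.777). Plxna1 in Glenn excess replicate 4 was at 63.3 CPM beside 56.6 to 58.1 CPM (0.769). In sham control replicate 3, both Sema3c (1013 CPM beside 707 to 780 CPM, 0.761) and Sema3g (218 CPM beside 155 to 172 CPM, 0.735) were high. Plxnc1 in Glenn excess replicate 2 was at 4.03 CPM beside 1.68 to 2.26 CPM (0.754). Efnb1 in sham deficient replicate 4 was at 466 CPM beside 350 to 380 CPM (0.742). Sema3b was low in sham deficient replicate 1, at 4.06 CPM beside 8.93 to 10.6 CPM (0.738), and high in Glenn deficient replicate 4, at 36.2 CPM beside 19.1 to 24.1 CPM (0.7104). Epha2 in Glenn deficient replicate 2 was at 85.5 CPM beside 69.5 to 73.8 CPM (0.731).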

How the results depend on the processing

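The count of 34 genes called on the average of the diets stayed between 27 and 37 under the alternatives that gave this comparison, and between 32 and 35 when 1 library was left out. Each of the 34 kept its averaged sign in these fits. RT1-CE16-high libraries only and the smaller series only lack sham excess libraries and gave no average, nor did the fits with only the groups compared. Leaving out 1 library gave 17 to 23 calls on the control diet (22 with all), 21 to 29 on the deficient diet (27) and 19 to 24 on the excess diet (23). The control diet gave 12 among RT1-CE16-low libraries, and the deficient diet 15 there and 15 in the larger series. No share of all genes is given beside these subset counts, so they do not single out the guidance genes. The single call of the excess against the control diet after Glenn became 0 with no series term, the larger series only, no low-count filter, the replicate block, either RT1-CE16 term, RT1-CE16-low or -high libraries only, or only the groups compared; it became 4 with DESeq2 and 3 with limma voom, and leaving out 1 library gave 0 to 3. The cause was not tested. With the replicate block, 35 genes passed on average and 33 of the 34 remained; Sema4g was at 0.54 (adjusted p = 0.0504) and Slit2 at 0.31 (adjusted p = 0.0132). The labels do not say what a replicate number stands for. Within every group it follows the order of the library numbers, and the smaller series holds only replicates 3 to 5. The part of the series in the correlations below was not tested. Of 75 same-numbered pairs, 38 had a correlation of deviations over 0.1, so the numbers were not taken as pairs, although 17 of 30 libraries correlated best with their own number, a hint from the data and not from the design. Depth limits the 9 genes under the low-count filter, which were not compared.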

Other observations

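The surgery change of Sema7a was compared between the libraries low and high in RT1-CE16 after its values were seen. It was larger in the low libraries by a log2 difference of 1.79 (SE 0.36, unadjusted p = 3.74e-05), which did not pass over all genes (edgeR adjusted p = 0.0738). Sema3f differed by 0.43 (SE 0.09, adjusted p = 0.0738) and Unc5a by 0.75 (SE 0.20, adjusted p = 0.199). No guidance gene passed (0 of 55, 9 at an unadjusted p under 0.05), nor did any of the 16171 genes (background 0%, 1553 unadjusted).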
